A study of Mus musculus with 6 samples.

Results

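Epithelial microRNAs were followed through 5 wells of an RT-PCR card of mouse lung RNA: miR-203, miR-205 and the cluster mates miR-182, miR-183 and miR-96. The members were chosen by name among the 768 wells of the deposited table, after species prefixes, assay numbers and arm suffixes were dropped. The wells carry the names mmu-miR-203, mmu-miR-205, mmu-miR-182, mmu-miR-183 and mmu-miR-96, each found once, and all 5 wells lay on the first of the 2 cards run per sample, where they stood among 375 miRNA wells. Names ending in #, which mark the minor strand of a hairpin, were not members, and 2 such wells of the same hairpins are given further on.

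The right lung was taken at day 7 of life from 2 groups of neonatal mice, after perfusion of the pulmonary artery with PBS. The hyperoxia group (3 samples) breathed 95% oxygen for 7 days from before 12 hours of age, which is a model of lung injury in oxygen-treated preterm infants. The room air group (3 samples) was kept in room air over the same days. The dams were switched between room air and oxygen every 24 hours, and the labels name no strain, genotype or sex. Whether each sample is a separate animal or litter is not in the labels, so the p-values measure no more than the spread among these 6 samples, part of which may be technical. Whole lung was used, so fewer cells of a type and less RNA per cell cannot be told apart.

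Mature miRNAs guide the silencing complex to messenger RNAs mainly through the seed, bases 2 to 8 from the 5′ end. miR-203 is known from skin, where it favours exit from the cell cycle and represses the stem cell factor p63. miR-205 is abundant in basal cells of stratified and glandular epithelia and, like the miR-200 family, represses Zeb1 and Zeb2, which drive loss of epithelial character. miR-183, miR-96 and miR-182 come from 1 primary transcript, are known above all from sensory cells of the ear and eye, and are also found in other epithelia. Changes in the seed of miR-96 cause hearing loss in mice and humans.

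The 5 mature sequences, from RefSeq (GRCm38.p6), are shown because they tell which of these wells read related molecules. The deposited names carry no arm, so the guide arm of each hairpin is printed, 5′ to 3′, with the seed in capitals.
miR-203 (3p arm): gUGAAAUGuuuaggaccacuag
miR-205 (5p arm): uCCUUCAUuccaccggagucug
miR-182 (5p arm): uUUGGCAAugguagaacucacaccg
miR-183 (5p arm): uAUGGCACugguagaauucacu
miR-96 (5p arm): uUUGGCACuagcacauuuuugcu

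All 5 members were matched to RefSeq, and no seed of bases 2 to 8 was shared between them. miR-182 and miR-96 had the same bases 2 to 7 and differed in the seed by A8C, with positions counted from 1 at the 5′ end and the base of the first-named miRNA given first. miR-183 and miR-96 differed in the seed by A2U, and miR-182 and miR-183 by U2A and A8C. Over the whole length miR-182 and miR-183 were the closest pair, with 18 of 22 positions identical from the 5′ end, against 12 of 23 for miR-182 and miR-96 and 13 of 22 for miR-183 and miR-96. miR-203 and miR-205 had at most 6 of 22 positions in common with any other member. miR-1271-5p has the same seed as miR-96 in RefSeq, but no well matched its name and it is not analysed here.

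The cluster hairpins lie on the minus strand of chromosome 6 within the host gene Mirc35hg, between the protein-coding genes Nrf1 and Ube2h. The mature sequences stand at chr6:30169711-30169732 (miR-183), chr6:30169506-30169528 (miR-96) and chr6:30165962-30165986 (miR-182). The hairpins of miR-183 and miR-96 are 116 bases apart, and that of miR-182 lies 3453 bases beyond miR-96. miR-205 is at chr1:193507503-193507524 on the minus strand, within the noncoding gene Mir205hg, and miR-203 is at chr12:112130927-112130948 on the plus strand, between Aspg and Kif26a.

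The level of each RNA was read as the threshold cycle (Ct), the number of PCR cycles needed to reach a fixed signal. More RNA gives a lower Ct, with 1 cycle worth a factor of 2 if every cycle doubles the product. Ct values of different wells also differ with primer efficiency and pre-amplification, so their order describes the wells and not numbers of molecules. With detection set at a Ct under 35, the samples had 307 to 319 miRNAs on the first card, of which 282 were detected in all 6. The number of samples limits the precision.

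All 5 members were detected in all 6 samples. In order of mean Ct they were miR-203 (19.6), miR-182 (19.7), miR-183 (24.2), miR-205 (25.03) and miR-96 (27.0). Among the 282 assays detected in all samples, these were at places 77, 80, 176, 195 and 231 from the earliest. The wells of miR-203 and miR-182 could not be separated, since their Ct within a sample differed by at most 0.355 cycles in either direction. miR-205 came after miR-183 in 5 of the 6 samples, the exception being room air replicate 3, and miR-96 came after miR-205 in every sample, by 1.17 to 2.86 cycles. The cluster mates, made from 1 transcript, thus had Ct values spread over 7.03 to 7.61 cycles between miR-96 and miR-182.

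**Figure D1:**
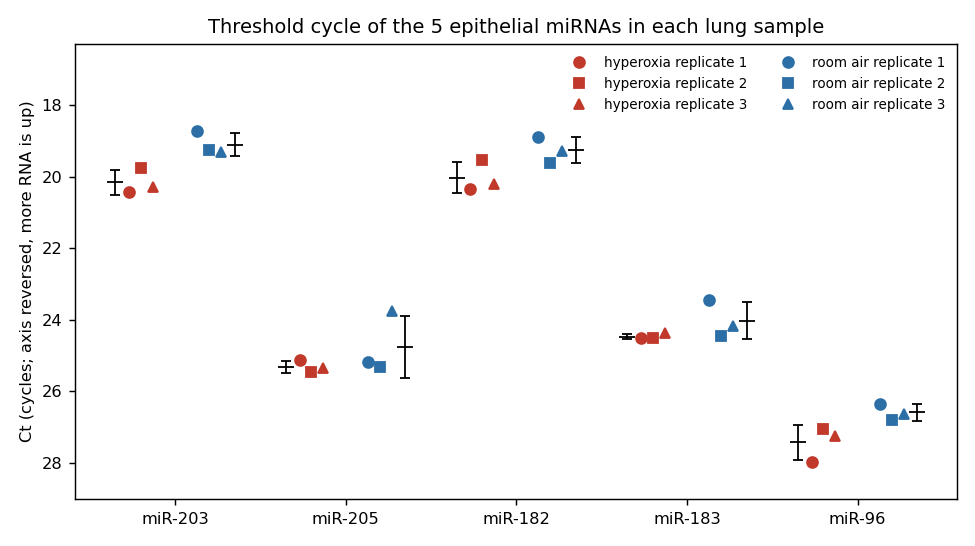
Threshold cycle (Ct, in cycles, axis reversed so that more RNA is up) of the 5 miRNAs, with 1 point per lung sample, hyperoxia in red and room air in blue. Bars give mean ± SD (n = 3). The hyperoxia samples of miR-203 and of miR-96 all lie at later cycles than the room air samples, and room air replicate 3 stands apart for miR-205.

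The comparison of hyperoxia with room air asked which miRNAs of the newborn lung differ after oxygen exposure. None of the 5 members passed. Of 551 assays tested with limma over both cards, 0 were called at a Benjamini-Hochberg adjusted p under 0.05 (0% of the assays), while 50 (9.07%) had an unadjusted p under 0.05 and none of the 5 members was among these. Values are log2 relative abundance, which is the mean Ct of the 282 assays in a sample minus the Ct of the miRNA. Fold changes are hyperoxia over room air ± SE from the fit over all assays.

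miR-203 had the narrowest spread of the 5. Its Ct was 20.44, 19.77 and 20.29 in the hyperoxia samples, against 18.74, 19.26 and 19.33 in room air. All 3 hyperoxia samples were later than all 3 room air samples, by a mean of 1.05 cycles. Many miRNA assays of the card moved the same way. Every hyperoxia sample was later than every room air sample for 136 of the 302 first-card assays tested (45%). The mean Ct of the 282 assays was 23.1 in hyperoxia and 22.4 in room air, a difference of 0.76 cycles.

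Relative to that mean, miR-203 was at 3.03, 2.84 and 3.02 in hyperoxia and at 3.28, 3.22 and 3.27 in room air. The groups did not overlap, with the hyperoxia samples on the lower side, as was the case for 49 of the 302 first-card assays (16.2%). The log2 fold change was -0.29 ± 0.21 (0.817-fold, 95% interval 0.567 to 1.18) with a limma adjusted p of 0.689. The SD within groups was 0.0787, and 0.662% of the 302 assays had a smaller one. The fit draws so small a spread toward that of the other assays, so its SE is larger than the SD alone would give. An exact permutation test of the same values (two-sided) gave p = 0.1, the smallest that 3 samples against 3 allow.

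miR-205 had the widest spread of the 5. Its Ct was 25.13, 25.45 and 25.36 in hyperoxia, against 25.17, 25.32 and 23.76 in room air. Room air replicate 3 was at least 1.36 cycles earlier than every other sample, and the other room air samples lay within the range of the hyperoxia samples. On the relative scale the values were -1.66, -2.83 and -2.05 in hyperoxia and -3.14, -2.84 and -1.16 in room air, so that the room air samples held both the highest and the lowest value. The log2 fold change was 0.20 ± 0.63 (1.15-fold, 95% interval 0.389 to 3.41, limma adjusted p = 0.935). It was 0.80 without room air replicate 3 and -0.18 without room air replicate 1, so single samples set its size and its sign. The SD within groups, 0.865, was larger than that of 78.1% of the 302 first-card assays.

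Within the cluster, miR-182 was the most even member. Its Ct was 20.35, 19.54 and 20.22 in hyperoxia, against 18.89, 19.62 and 19.29 in room air, with hyperoxia replicate 2 inside the room air range. The relative values were 3.12, 3.07 and 3.09 in hyperoxia (SD 0.0241, n = 3) and 3.14, 2.86 and 3.30 in room air (SD 0.223, n = 3). The hyperoxia values all lay between the room air values, and the log2 fold change was -0.01 ± 0.23 (0.993-fold, 95% interval 0.665 to 1.48, limma adjusted p = 0.988). With 1 sample left out it ran from -0.13 to 0.08.

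miR-183 had the highest log2 fold change of the cluster. It was positive beside -0.01 ± 0.23 for miR-182 and -0.07 ± 0.26 for miR-96, but with each control RNA as reference all 5 members had the same sign. Its Ct differences from miR-182 and miR-96 overlapped between the groups (exact permutation p of 0.4 and 0.3, two-sided). Its Ct was 24.52, 24.50 and 24.38 in hyperoxia, against 23.45, 24.45 and 24.16 in room air. The relative values were -1.05, -1.89 and -1.07 in hyperoxia and -1.42, -1.97 and -1.56 in room air. Hyperoxia replicates 1 and 3 were above all room air samples, and replicate 2 was below room air replicates 1 and 3. The log2 fold change was 0.31 ± 0.34 (1.24-fold, 95% interval 0.691 to 2.23, limma adjusted p = 0.787), and 0.60 without hyperoxia replicate 2 against 0.15 without room air replicate 2.

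miR-96 had the latest Ct of the 5, at 27.96, 27.04 and 27.25 in hyperoxia, against 26.34, 26.79 and 26.63 in room air. All hyperoxia samples were later than all room air samples, as for 45% of the first-card assays. Relative to the mean of the card the groups overlapped, at -4.49, -4.42 and -3.94 in hyperoxia and -4.31, -4.31 and -4.03 in room air. The log2 fold change was -0.07 ± 0.26 (0.953-fold, 95% interval 0.604 to 1.503, limma adjusted p = 0.94). With 1 sample left out it ran from -0.27 to 0.03.

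**Figure D2:**
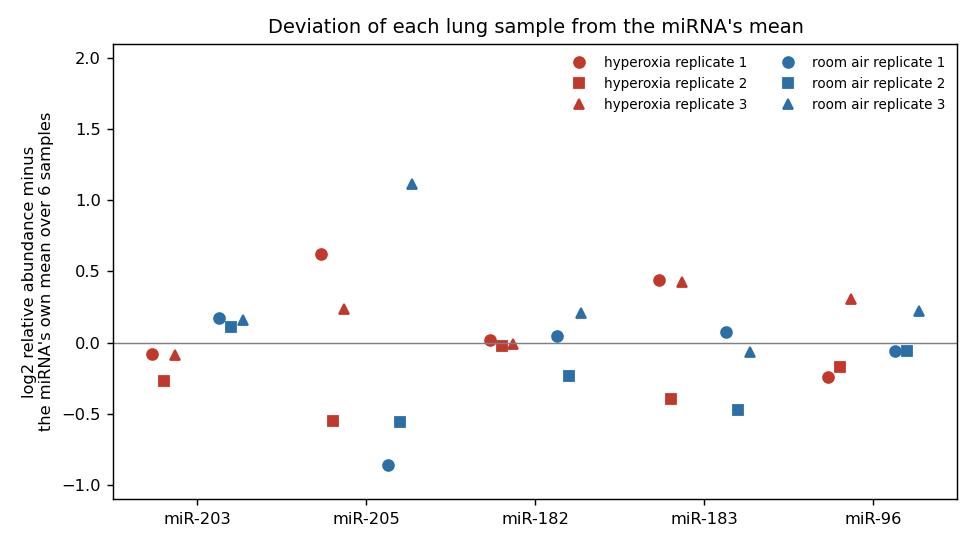
Log2 relative abundance of each miRNA in each lung sample minus the mean of that miRNA over the 6 samples, hyperoxia left and in red, room air right and in blue. The groups of miR-203 do not overlap, the 3 hyperoxia points of miR-182 lie almost together, and hyperoxia replicate 2 and room air replicate 2 are the low points of miR-183.

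The intervals bound what these samples can show with the mean of the detected miRNAs as reference. The intervals of all 5 include 0 on the log2 scale. Those of miR-203, miR-182 and miR-96 hold neither 0.5-fold nor 2-fold, since their lower bounds were 0.567, 0.665 and 0.604 and their upper bounds 1.18, 1.48 and 1.503. The interval of miR-183 reached 2.23 at its upper end. That of miR-205 ran from 0.389 to 3.41 and holds both. These bounds do not carry over to other references. With the control RNAs U87, snoRNA135 and snoRNA202, miR-203 was at -1.18, -1.13 and -1.01 on the log2 scale, each lower than 0.5-fold. With U87, miR-96 was at -0.96 ± 0.40 and miR-182 at -0.90 ± 0.30. With U6 in row B, miR-203 was at 0.0063.

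The other epithelial miRNAs read on the cards were the miR-200 family (miR-200a, miR-200b, miR-200c, miR-141 and miR-429), which keeps Zeb1 and Zeb2 low, and miR-375, found in secretory and neuroendocrine epithelium. All were detected in every sample used, with first-card mean Ct from 16.5 (miR-200c in room air) to 21.2 (miR-141 in hyperoxia). Epithelial miRNA signal was therefore present in both groups, although a whole-lung card does not show which cells gave it. Of 8 wells tested, 3 were positive and 5 negative, with a median of -0.07 and a range from -0.49 to 0.12. Of these, the 6 first-card wells gave 1 positive and 5 negative values with a median of -0.12, and 2 of the 3 positive wells lay on the second card, where 2 samples per group were used and well names are uncertain. The 5 members gave 2 positive and 3 negative values, a median of -0.01 and a range from -0.29 to 0.31, and the difference between the lists was not tested. Over all 551 assays 232 were positive and 319 negative, with a median of -0.12. Of the 8 wells, 0 passed over all assays and 0 had an unadjusted p under 0.05, beside 9.07% of all assays.

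Among single wells, miR-200a was at 0.10 ± 0.30, miR-141 at -0.03 ± 0.29 and miR-429 at -0.20 ± 0.32. The first-card wells of miR-200b and miR-200c were at -0.12 ± 0.41 and -0.12 ± 0.33. The second-card wells, named hsa-miR-200b and hsa-miR-200c, were at 0.09 ± 0.41 and 0.12 ± 0.39. miR-375 had the most negative value, -0.49 ± 0.49. Their limma adjusted p ran from 0.775 to 0.976.

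**Figure D3:**
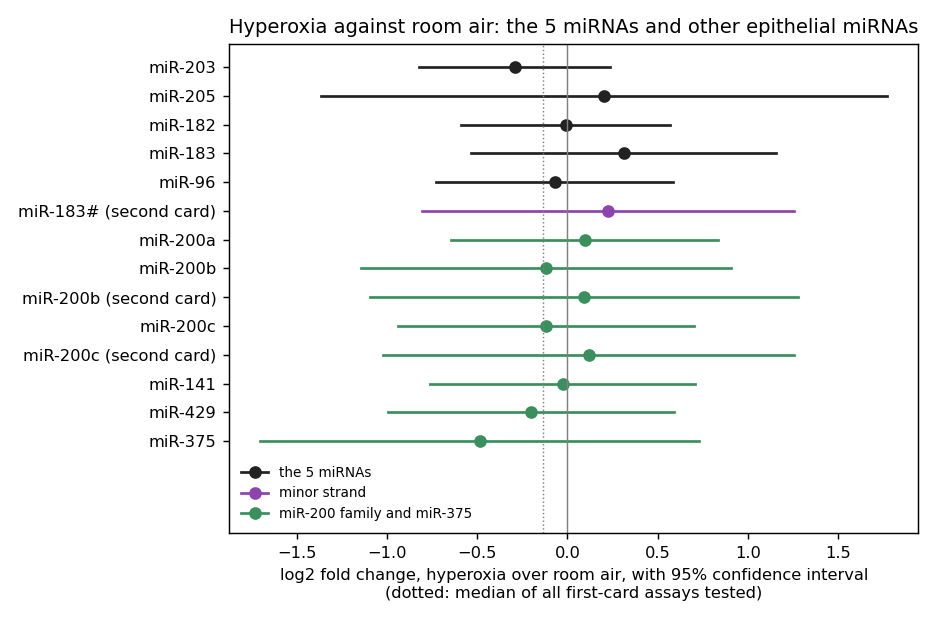
Log2 fold change of hyperoxia over room air with 95% confidence intervals from limma for the 5 miRNAs (black), the minor strand miR-183# (purple) and the miR-200 family with miR-375 (green). Every interval crosses 0, and miR-205 and miR-375 have the widest intervals among first-card wells. The other minor strand, miR-203# (1.81 ± 1.99, second card), is not drawn.

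Lists for other cell types of the lung were read beside these. The endothelial list had 2 of 4 tested wells positive (median 0.29), the smooth muscle and mesenchymal list 4 of 8 (median 0.11) and the leukocyte list 4 of 6 (median 0.74). The ciliated cell list had 2 of 5 positive (median -0.48), the erythroid list 2 of 3 (median 0.24) and the neural and neuroendocrine list 4 of 5 (median 1.22). These medians move with the reference. With the mean of the control RNAs they were -0.27 for the endothelial, -0.38 for the smooth muscle and -0.33 for the erythroid list, which changed sign, and 0.20 for the leukocyte, -1.05 for the ciliated and 0.79 for the neural list, where the median over all assays was -0.62. On the first card alone the smooth muscle median was 0.24 over 5 wells and the erythroid median 0.48 over 2 wells. The leukocyte median was 0.60 over 5 such wells and the neural median 0.90 over 4. Those of the ciliated list (3 wells) and the endothelial list (4 wells) stayed at -0.48 and 0.29. In each of the 6 lists 0 wells passed over all assays with limma and 1 had an unadjusted p under 0.05. That makes 6 of 31 wells (19.4%) beside 9.07% of all assays. In the ciliated and erythroid lists this well lay on the second card, where 2 samples per group were used and well names are uncertain. The part of these cell types in the values of the 5 members was not tested.

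The place of 0 on the log2 scale depends on the reference, and this decides the sign for most members. The differences between members stay the same when the reference is changed, since 1 amount per sample is subtracted from all. Relative to the mean of the detected miRNAs, 3 members were negative and 2 positive. Relative to U6 in row A of the first card, the wells that the authors used, all 5 were negative, from -0.62 (miR-203) to -0.01 (miR-183). Relative to U6 in row B all 5 were positive, from 0.01 (miR-203) to 0.61 (miR-183). U6 is the nuclear spliceosomal RNA, and its wells were 0.43 cycles later in hyperoxia in row A and 1.06 cycles later in row B. Both wells of a row had the same values, so each row is 1 reading.

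Relative to the small nucleolar RNAs and Y1, which are the other controls of the card, all 5 members were negative. The mean Ct in hyperoxia minus that in room air was -0.08 cycles for snoRNA135, 0.04 for snoRNA202 and -0.13 for U87. It was 0.41 cycles for Y1, against 0.76 for the mean of the detected miRNAs. miR-203 was at -1.13 with snoRNA135, -1.01 with snoRNA202, -1.18 with U87 and -0.65 with Y1. miR-183 was the least negative with each of them, from -0.58 with U87 to -0.04 with Y1. With snoRNA202, 3 of the 5 members had groups that did not overlap, on the lower side (miR-203, miR-182 and miR-96), where 47.7% of the 302 assays did. With U87 the same 3 members did, where 55% of the assays did. With U6 in row A the groups of miR-203 alone did not overlap, on the lower side (26.5% of the assays), and with U6 in row B those of miR-183 alone, on the higher side (11.9% of the assays). With snoRNA135 and Y1 the groups overlapped for all 5, where 21.9% and 5.96% of the assays had groups apart on the lower side. Counts for the members and for all assays thus both varied with the control chosen.

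**Figure D4:**
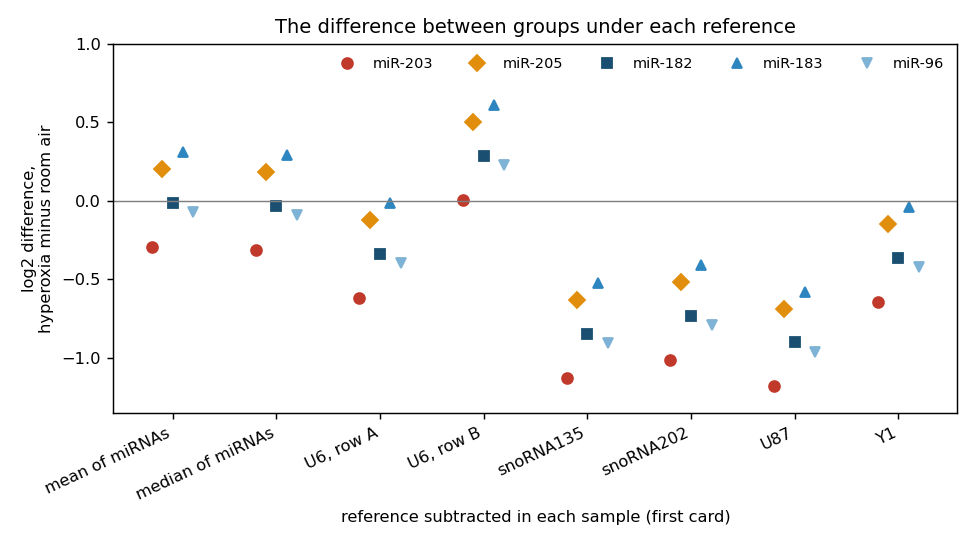
Difference between hyperoxia and room air (log2, mean of 3 samples minus mean of 3 samples) of the 5 miRNAs with each reference of the first card subtracted. The 5 points keep their distances from each other and move together, from all above 0 with U6 in row B to all below 0 with U6 in row A, the small nucleolar RNAs and Y1, with miR-203 lowest and miR-183 highest throughout.

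The authors' deposited table gives folds of hyperoxia over room air relative to U6 in row A. In the authors' deposited table miR-203 was at 0.651, miR-205 at 0.919, miR-182 at 0.792, miR-183 at 0.991 and miR-96 at 0.760, with no test.

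Ratios between members need no reference, so the Ct difference between 2 members in the same sample was compared between groups for all 10 pairs. miR-182 and miR-203 gave the single pair whose groups did not overlap. The Ct of miR-182 minus that of miR-203 was -0.09, -0.23 and -0.07 cycles in hyperoxia, against 0.14, 0.35 and -0.03 cycles in room air. The mean difference was thus -0.13 ± 0.09 cycles in hyperoxia and 0.15 ± 0.19 cycles in room air (SD, n = 3 each). The groups came within 0.034 cycles of each other, between hyperoxia replicate 3 and room air replicate 3. The change of -0.28 cycles had an exact permutation p of 0.1 (two-sided, the smallest possible) and 0.667 after Benjamini-Hochberg adjustment over the 10 pairs. Among all 39621 pairs of the 282 assays, 18.3% had groups that did not overlap, a larger share than the 1 of 10 here.

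The largest of the 10 changes was that of miR-183 against miR-203. The Ct of miR-183 minus that of miR-203 was 4.09, 4.74 and 4.09 cycles in hyperoxia, against 4.71, 5.19 and 4.84 cycles in room air. Hyperoxia replicates 1 and 3 lay below all room air samples, while replicate 2 lay just above room air replicate 1. The change was -0.60 cycles (exact permutation p = 0.2, two-sided, adjusted p = 0.667) and ran from -0.82 to -0.47 with 1 sample left out.

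Within the cluster, the Ct of miR-96 minus that of miR-182 was 7.614, 7.495 and 7.032 cycles in hyperoxia, against 7.46, 7.17 and 7.33 cycles in room air. The group means differed by 0.06 cycles (exact permutation p = 0.7), less than the SD of 0.217 over the 6 samples. The difference between group means was -0.32 cycles for miR-183 minus miR-182 and 0.38 cycles for miR-96 minus miR-183, the pairs whose overlap is given with miR-183. The 10 exact permutation p ran from 0.1 to 0.8, and the adjusted ones from 0.667 to 0.8.

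**Figure D5:**
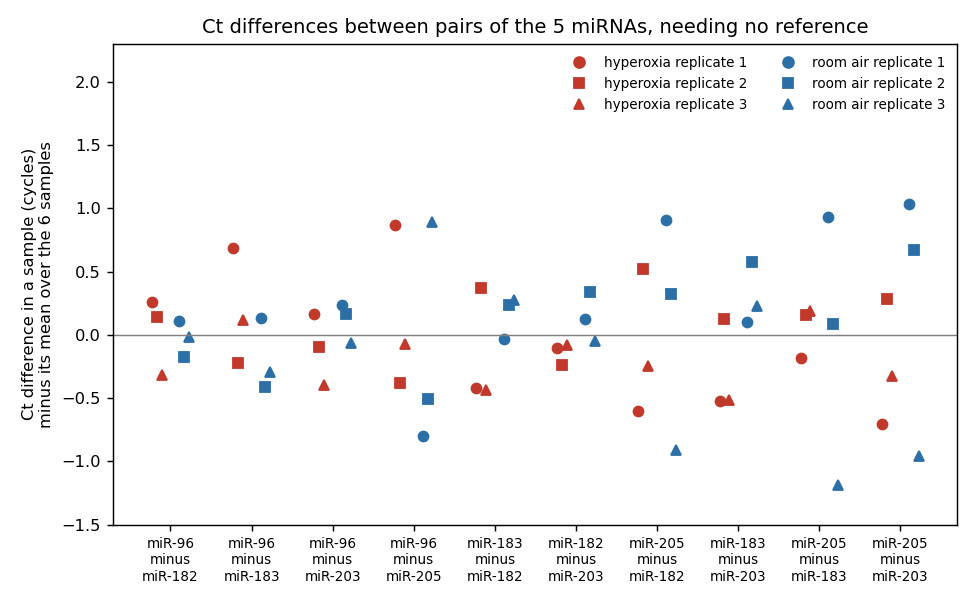
Ct difference between 2 of the 5 miRNAs in the same sample (cycles), minus the mean of that difference over the 6 samples, for all 10 pairs, hyperoxia left and in red, room air right and in blue. The groups separate narrowly for miR-182 minus miR-203 and overlap in the other 9 pairs, and pairs with miR-205 scatter the most.

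The pattern of each member over the 6 samples was set against that of the other 281 first-card assays detected throughout, as the mean absolute difference after each assay was centred on its own mean. The nearest assays to miR-203 were miR-195 (0.0761), miR-148b (0.0852) and miR-433 (0.0882), where the median over all 281 was 0.363. miR-182 was nearest to miR-345-3p (0.0893), miR-455 (0.0952) and miR-204 (0.0955), against a median of 0.397. miR-96 was nearest to miR-204 (0.127), miR-141 (0.132) and miR-126-5p (0.143), against 0.399. miR-183 was nearest to miR-367 (0.167), miR-200a (0.182) and miR-137 (0.204), against 0.497. miR-205 was nearest to miR-296-5p (0.206), let-7b (0.217) and let-7f (0.217), against 0.741. Assays with little spread are near many others by this measure.

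The members were not each other's nearest. From miR-182, miR-203 came at place 15 of 281 (0.156), miR-96 at place 22 (0.171) and miR-183 at place 95 (0.294). From miR-96, its transcript partner miR-182 was at place 14 and miR-183 at place 96. miR-205 was the farthest member from each of the others, at 0.456 to 0.662.

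The minor strands of 2 of the hairpins were read on the second card, miR-203# and miR-183#, in wells named mmu-miR-203# and hsa-miR-183#. If the well names are right, the strands have the following mouse RefSeq sequences. They are shown because they come from the same precursors as miR-203 and miR-183 and have other seeds (capitals).
miR-203# (5p arm): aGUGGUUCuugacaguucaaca
miR-183# (3p arm): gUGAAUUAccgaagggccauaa

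On that card room air replicate 1 and hyperoxia replicate 2 had the same value in 382 of 384 wells and were left out, leaving 2 samples per group. All 105 second-card names that carry an assay number matched the number listed 3 wells later and 0 matched that of their own well, so names there are uncertain. miR-183# had a Ct of 22.22 and 22.66 in hyperoxia, against 22.66 and 22.31 in room air. The groups overlapped, and the log2 fold change was 0.23 ± 0.36 (limma adjusted p = 0.867), beside 0.31 for miR-183 itself. miR-203# had a Ct of 30.351 and 25.169 in hyperoxia, against 29.005 and 29.756 in room air. The hyperoxia samples thus stood on both sides of the room air samples, and the log2 fold change of 1.81 ± 1.99 (limma adjusted p = 0.804) rests on hyperoxia replicate 3.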

How the data were processed

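Total RNA was reverse transcribed with Megaplex primer sets A and B and pre-amplified for 12 cycles, per the labels' protocols; the instrument, software and Ct threshold are not given in the sources used here. The authors deposited Ct values per well and, per the file headers, a fold (ratio) of hyperoxia over room air. Wells at a Ct of 35 or later were set to missing. Each sample was centred, card by card, on the mean Ct of the miRNAs detected in all samples used (282 assays for card 1, 249 for card 2), giving log2 relative abundance. Assays detected in at least 2 samples per group were tested with limma 3.58.1 in R 4.3.3 (lmFit and eBayes, two-sided, Benjamini-Hochberg over 551 assays, tested on simulated data). The estimated prior had 1.62 degrees of freedom. Exact permutation tests used SciPy 1.17.1. Shared second-card values were left out. Samples were grouped by their titles; replicates were not paired. Alternatives were ceilings, references, filters, a replicate block and single samples left out.

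The members and lists were chosen with earlier results of these data known. Named miRNAs are the members, their minor strands, seed-sharing assays, the miR-200 family with miR-375, and the 3 first-card assays nearest in pattern to each member.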

Additional observations from a re-analysis of the deposited data

How the results depend on the processing

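None of the 5 miRNAs passed the adjusted threshold in any of 30 alternatives, with limma adjusted p of at least 0.0516 for miR-203, 0.0651 for miR-182, 0.102 for miR-96, 0.237 for miR-183 and 0.355 for miR-205. miR-203 was negative in 29 of 30 and at 0.0063 with U6 in row B. Settings that change only the second card, the assays tested or the variance model cannot move the log2 fold changes of the members. The same holds for the replicate block, so these settings say nothing about the signs. Signs of the other members changed as follows. With U6 in row B miR-96 was at 0.23 and miR-182 at 0.29. A Ct ceiling of 28 put miR-96 at 0.038 and miR-182 at 0.10, and a ceiling of 32 or quantile normalization put miR-182 at 0.012 and 0.0076, and leaving out plate row G put it at 0.056. miR-183 and miR-205 were at -0.25 and -0.36 with the control RNAs together, at -0.015 and -0.12 with U6 in row A and at -0.45 and -0.56 without normalization. They were at -0.53 and -0.63 with snoRNA135, at -0.41 and -0.52 with snoRNA202, at -0.58 and -0.69 with U87 and at -0.041 and -0.15 with Y1. The references by single control, other than U6 in row A, were chosen after seeing the data. The cause was not tested, but every control subtracts 1 amount from all 5. With the mean of the control RNAs, all 8 wells of the miR-200 family and miR-375 were negative (median -0.63), where the median over all assays was -0.62. The medians over first-card wells alone were an alternative added after seeing the data.

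With 1 sample left out, the log2 fold changes ran from -0.35 to -0.22 for miR-203, -0.18 to 0.80 for miR-205, -0.13 to 0.081 for miR-182, 0.15 to 0.60 for miR-183 and -0.27 to 0.026 for miR-96. Within-sample differences that changed sign were miR-96 minus miR-182 (-0.057 to 0.23 cycles), miR-96 minus miR-205 (-0.090 to 0.79), miR-205 minus miR-182 (-0.72 to 0.19) and miR-205 minus miR-183 (-0.46 to 0.60).

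Over all assays 0 passed, and 1 did with a Ct ceiling of 32 or 28, the first card alone, plate row G left out, a trend in eBayes or U6 in row B (miR-34a each time), and without hyperoxia replicate 1 (miR-322). Neither is a member, and both are named after their values were seen. Deviations of same-numbered samples from their group means had correlations over 282 assays of -0.34, -0.23 and -0.18. Differently numbered samples ran from -0.25 to 0.36. Same-numbered samples were thus not more alike, and the numbers were not used as pairs. With the replicate block 0 of 301 assays passed and 27 had an unadjusted p under 0.05, and miR-203 had a limma adjusted p of 0.721. Its log2 fold change of -0.29 cannot change with this block, since each block holds 1 sample of each group. All 5 members had a Ct under 28 in every sample, the latest being miR-96 at 27.96 in hyperoxia replicate 1. Whether signal limited their precision was not tested.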

Other observations

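The well named miR-183# read earlier than that of miR-183, at a mean Ct of 22.5 over 4 samples on the second card, against 24.2 over 6 samples on the first. Relative to the mean of its own card it was at 2.79 in hyperoxia and 2.56 in room air, while miR-183 was at -1.34 in hyperoxia and -1.65 in room air. The cards use different primer pools, names on the second card are uncertain, and primer efficiency differs between wells, so the values do not compare the strands.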
